A study of Zea mays with 48 samples.

Results

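The comparison of the lower with the upper side of the maize pulvinus 5 min after reorientation rests on 8 of the 48 arrays of the series, 4 for total RNA and 4 for polysomal RNA. Maize plants of the inbred B73, about 6 weeks old and grown in a greenhouse under natural light, were turned on their side by 90°, and the second pulvinus above the soil was harvested and cut lengthwise into the slow-growing upper and the fast-growing lower side. The plants compared carried no transgene or mutation that the labels name. The background came from 8 arrays of plants kept vertical, whose pulvini were divided into left and right sides in the same way. Each time point pooled 6 pulvini, both sides came from the same plants, and total and polysomal RNA were taken from separate portions of each frozen powder. The experiment was run in 2 growing seasons, here season 1 and season 2, which are the repetition numbers of the labels. A group therefore held 2 arrays, 1 per season. The p-values measure the spread of side differences between pools of plants, estimated over all time points and vertical plants together. Fewer cells of a type and less RNA per cell cannot be told apart in such bulk tissue.

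The pulvinus is the joint of a grass stem that bends the shoot upright again after it has been laid flat. Its starch-filled cells sense the new direction of gravity, auxin becomes unequally distributed between the sides, and cells on the lower side then elongate more than those on the upper side. Wall loosening proteins such as expansins, hydrogen peroxide, inositol phosphates and the growth hormones auxin and gibberellin are known for their part in this kind of bending. Polysomal RNA is messenger RNA carried by several ribosomes and is used as a measure of messages being translated.

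Signal was read on the Affymetrix Maize Genome Array and is given as log2(signal + 16), so a difference of 1 stands for a factor near 2 at high signal and for less at low signal. Of 17545 probe sets, the 10527 with the higher mean level were tested, and 920 of these had a gene name, for 773 genes. A side difference was called where the Benjamini-Hochberg adjusted p of limma over all 10527 probe sets was under 0.05. Genes of green tissue, such as those of photosynthesis, had a median signal of 522.5 to 743.6 per array over 37 probe sets. The median over 22 probe sets of seed and pollen genes was 4.25 to 13.45, and over 16 probe sets of meristem and stem genes it was 5 to 21.85. Over the arrays the summed signal of the green tissue list was 42627.9 to 52985.4 in upper or left sides and 45880.4 to 51918.6 in lower or right sides.

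The upper side array of polysomal RNA at 5 min from season 1 stood apart from the other arrays. Across the 10527 probe sets, upper and lower side of its pool correlated with r = 0.903, against 0.973 to 0.992 in the other 23 pairs. The SD of the side difference was 0.653 in this pair and 0.193 to 0.342 in the others. Among those 23 pairs, the season 2 polysomal pair at 5 min had the lowest r (0.973) and the highest SD (0.342). The array was most like the season 2 polysomal arrays at 5 min, with r = 0.981 to the upper side and 0.981 to the lower side. Upper and lower side of that season 2 pair correlated less with each other (r = 0.973). With the 23 other season 1 arrays r was 0.870 to 0.919, including 0.896 with total RNA of its own powder, whereas with the 24 season 2 arrays it was 0.914 to 0.981. The array thus went against its season label, and each polysomal result below is given with and without it. The most direct way to leave it out is to use the season 2 pair alone at 5 min. The p-values for that pair then take their spread from vertical plants and the other times, and none from 5 min. The pair is thus assumed to vary like the other pools, which could not be tested with 1 pair.

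**Figure D1:**
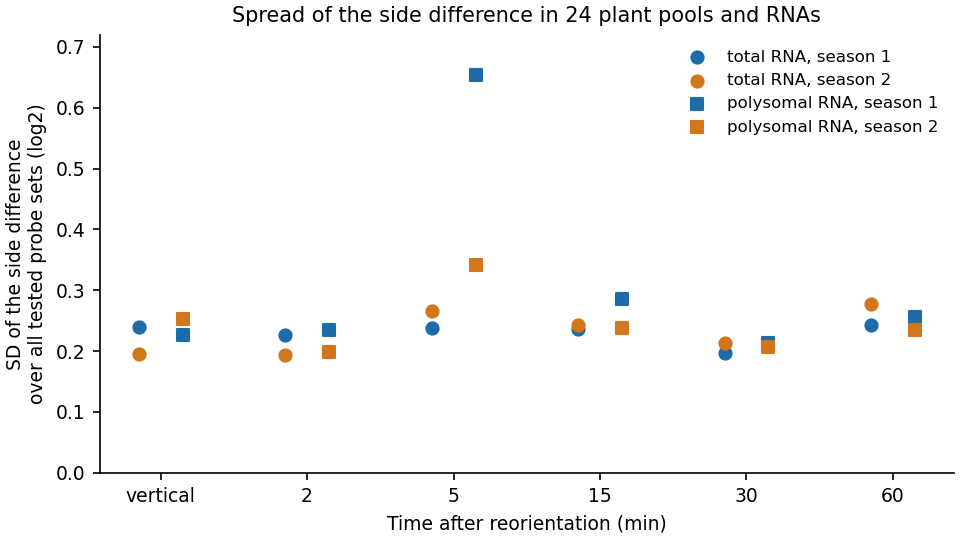
SD over 10527 probe sets of the difference between the sides of a pool (log2, y axis) for each time point (x axis, min, with vertical plants first), each kind of RNA and each season. The season 1 polysomal pair at 5 min lies at 0.653, above the other 23 pairs at 0.193 to 0.342.

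With all arrays, 1250 of 10527 probe sets (11.9%) differed between the sides in polysomal RNA at 5 min, 812 higher (7.71%) and 438 lower (4.16%) on the lower side. With the season 2 pair alone the count was 161 (1.53%), 148 higher (1.41%) and 13 lower (0.123%), and with the season 1 pair alone, which holds the array that stood apart, 3103 (29.5%). The genes higher on the lower side in both settings included the expansins expA3, expB4, expB5 and expB8, the polyamine oxidase mpao1, the allene oxide synthase aos1, the beta-glucosidase glu1 and the gibberellin biosynthesis gene dwarf3. The NADPH oxidase gene rbohB was lower in both. Of the 1250 probe sets, 145 (11.6%) were among the 161, which is 90.1% of the latter. The all-array fit includes that season 2 pair, so genes called in both settings were not called independently and the overlap is partly built in. For 595 of the 1250 the season 1 difference was more than 2 times that of season 2.

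**Figure D2:**
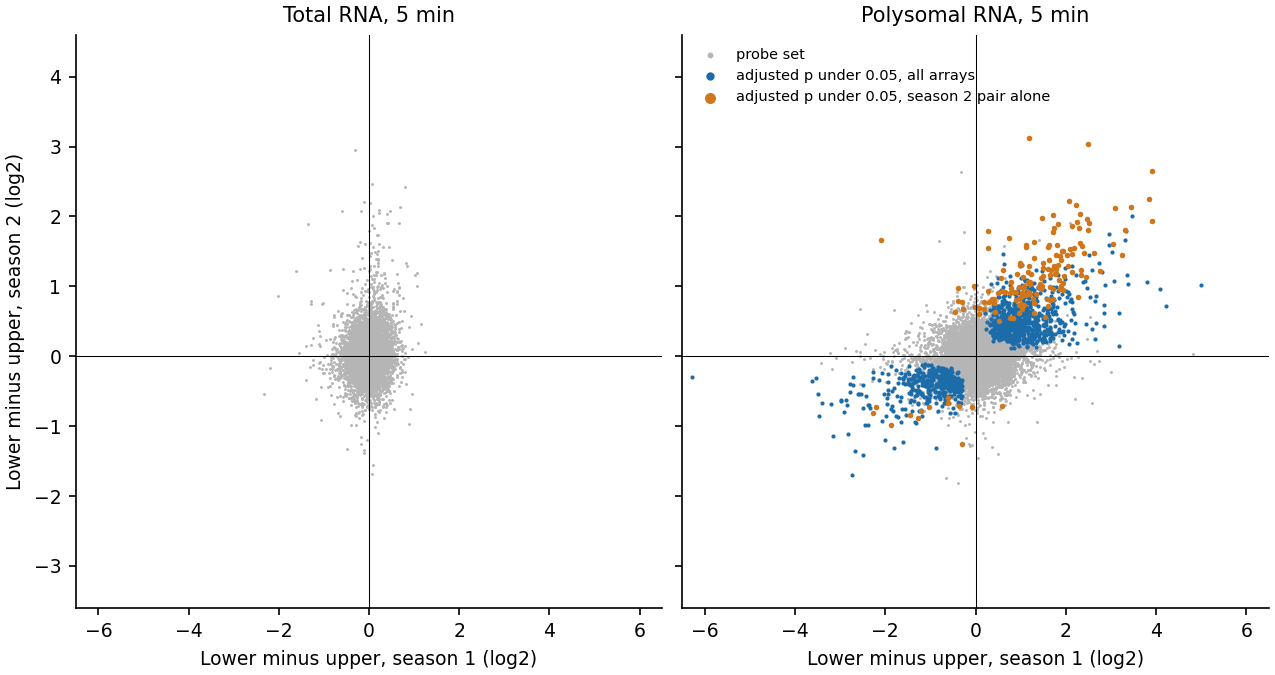
Side difference at 5 min of each of 10527 probe sets in season 1 (x axis) and season 2 (y axis), in log2 units, for total RNA (left) and polysomal RNA (right). In polysomal RNA the points spread along the season 1 axis, 1250 were called with all arrays and 161 with the season 2 pair alone, whereas in total RNA the differences of the seasons correlated with r = 0.0641.

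Leaving out only the array that stood apart, and keeping the lower side array of its pool, gave 151 called probe sets (1.43%), 129 higher and 22 lower, when the pools entered the fit as random blocks. With the season as the only block, 6 were called, all higher. There were 107 probe sets called both with the season 2 pair alone and without that array in the random block fit, 100 higher and 7 lower. Among these were 12 listed genes, namely expA3, expB4, expB5, expB8, mpao1, aos1, lox3, dwarf3, EF1-A, rbohB, KIN9 and LOC542510. Only expA3 among the listed genes was also called with the season as the only block. All of these fits include the season 2 pair. Its upper side array is the only polysomal array of the upper side that they keep at the time compared. Genes called in several of these fits were thus not called independently, and the overlap is partly built in.

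Expansins loosen the cell wall without hydrolysing it and let turgid cells expand. The alpha-expansin gene expA3 had log2 signals in polysomal RNA of 9.43 (season 1) and 9.54 (season 2) on the upper and of 11.66 and 11.71 on the lower side. In total RNA it stood at 12.18 and 9.01 on the upper and at 11.88 and 11.96 on the lower side. In vertical plants all 8 arrays lay between 12.15 and 12.43. The upper side was thus low in season 2 in both kinds of RNA, and in season 1 in the array that stood apart but not in total RNA of the same powder. The lower minus upper difference of expA3 in polysomal RNA was 2.19 ± 0.22 (SE, adjusted p = 0.00031) with all arrays. It was 2.16 ± 0.31 (adjusted p = 0.0084) with the season 2 pair alone, and 2.11 (adjusted p = 0.0021) without the array that stood apart in the random block fit. In total RNA the difference was 2.95 in season 2 and -0.31 in season 1. With both seasons it was 1.32 ± 0.56 and did not pass (adjusted p = 0.60). In the 10 polysomal pairs of vertical plants and of the other times, the side difference of expA3 was -0.62 to 0.67.

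Beta-expansins are the form of expansin that is abundant in grasses, and 3 of their genes, expB4, expB5 and expB8, were higher on the lower side in polysomal RNA. expB5 had upper side polysomal log2 signals of 7.97 and 7.49, in the same order of seasons, and lower side ones of 10.27 and 9.33. In total RNA the upper side had 9.40 and 7.26 and the lower side 10.07 and 8.24. By the labels, the lower side was the higher within each season and each kind of RNA. In season 1 polysomal RNA, however, the upper side is the array that stood apart and resembled season 2. Side and season cannot be told apart in that pair, which is part of the all-array test. The polysomal difference was 2.07 ± 0.21 (adjusted p = 0.00037) with all arrays and 1.83 ± 0.28 (adjusted p = 0.010) in season 2, and the total RNA difference was 0.82 ± 0.14 without passing the test (adjusted p = 0.16). For expB4 the polysomal differences were 3.06 in season 1 and 1.60 in season 2, with an adjusted p of 0.00058 with all arrays and 0.0078 in season 2 alone. expB8 differed by 1.08 and 1.00 in the seasons (adjusted p = 0.0002 with all arrays and 0.0044 in season 2). Its total RNA difference was 0.13 in season 1 and 0.56 in season 2. Among all 10527 probe sets, 7.71% were higher and 4.16% lower in polysomal RNA with all arrays. These shares were smaller with the season 2 pair alone, as given above. Of 15 probe sets of expansins and other wall loosening genes, 7 were higher and 0 lower with all arrays, at a median of 0.87, against 0.02 over all probe sets tested. With the season 2 pair alone, 5 were higher at a median of 0.56. The genes expB6, expB3 and xet1, the last of which encodes a xyloglucan endotransglycosylase, did not pass and had differences of -0.49, -0.41 and -0.85 with all arrays.

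Polyamine oxidase oxidises spermidine and spermine in the cell wall space and releases hydrogen peroxide, whereas NADPH oxidases of the rboh family make superoxide at the plasma membrane. For mpao1 the upper side polysomal signals were 7.83 and 8.20 and the lower side ones 9.91 and 10.43. Total RNA gave 10.20 and 8.35 in the upper side against 10.02 and 10.42 in the lower side. In total RNA only the upper side of season 2 was low. The season 1 upper signal in polysomal RNA comes from the array that stood apart. The polysomal difference of mpao1 was 2.16 ± 0.21 (adjusted p = 0.0003) with all arrays and 2.23 ± 0.30 (adjusted p = 0.0065) with the season 2 pair. In total RNA it was 2.08 in season 2 and -0.18 in season 1. With both seasons the total RNA difference was 0.95 ± 0.36 and did not pass (adjusted p = 0.54). The difference between the seasons, a comparison chosen after the values were seen, passed the test for mpao1 in total RNA (2.26, adjusted p = 0.024).

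rbohB went the other way. Upper side polysomal signals of 9.68 and 10.05 stood against lower side ones of 8.40 and 9.17, while vertical arrays lay between 8.49 and 9.11. Both upper arrays were above the lower and the vertical ones, where the season 1 upper array is the one that stood apart. The difference was -1.08 ± 0.12 (adjusted p = 0.0005) with all arrays and -0.88 ± 0.14 (adjusted p = 0.011) in season 2. In total RNA it was 0.06 in season 1 and -0.53 in season 2. The shares of all 10527 probe sets called in polysomal RNA with all arrays were 7.71% higher and 4.16% lower. These shares were smaller with the season 2 pair alone. Of 11 probe sets of the redox and polyamine list, 2 were higher (mpao1 and trm1) and 1 lower (sod2, a superoxide dismutase) with all arrays, and mpao1 alone passed in season 2. Among 26 probe sets of calcium, kinase and small G protein genes, 1 was higher (rop3) and 3 lower (rbohB, rop9 and rop4) with all arrays, and rbohB alone passed in season 2. CDPK1, a calcium-dependent protein kinase gene, did not pass, with differences of 0.36 and -0.32 in the seasons.

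**Figure D3:**
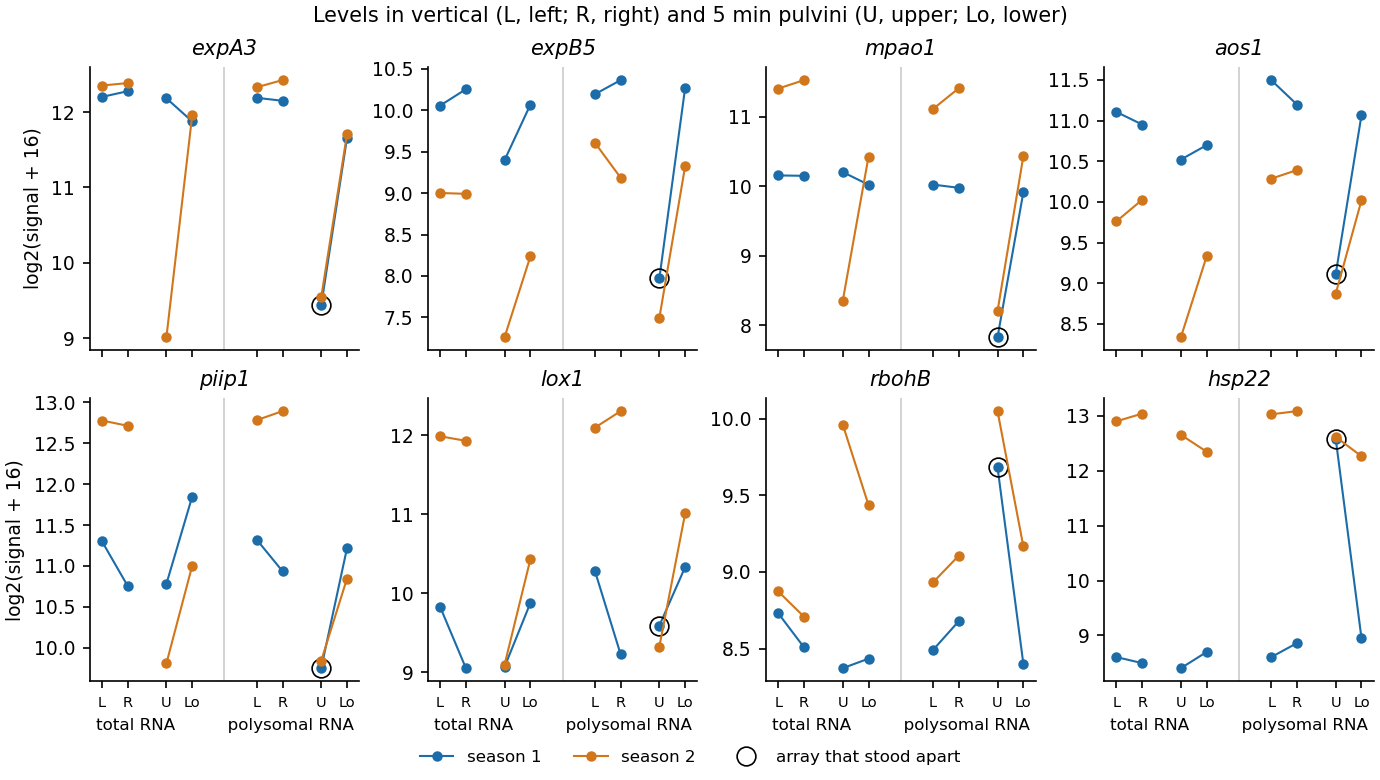
log2(signal + 16) of 8 genes (y axis) in each array of vertical pulvini (left, right) and of pulvini at 5 min (upper, lower), with lines joining the sides of a pool, seasons in colour, total RNA to the left and polysomal RNA to the right of the grey line. The circled array is the season 1 upper polysomal array, which lies beside the season 2 array in expA3 (9.43 and 9.54) and in hsp22 (12.58 and 12.62).

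Jasmonate is made from fatty acid hydroperoxides, which lipoxygenases form and which allene oxide synthase commits to the pathway. The synthase gene aos1 had upper side polysomal signals of 9.11 and 8.87 against 11.07 and 10.02 on the lower side. Its total RNA signals were 10.52 and 8.34 (upper) and 10.70 and 9.33 (lower). The lower side was higher in each season in both kinds of RNA, by 0.18 in season 1 total RNA and by 1.00 in that of season 2. In season 1 polysomal RNA it was compared with the array that stood apart. With both seasons the total RNA difference was 0.59 ± 0.17 and did not pass (adjusted p = 0.40). The polysomal difference was 1.55 ± 0.18 (adjusted p = 0.0006) with all arrays and 1.15 ± 0.18 (adjusted p = 0.011) with the season 2 pair. The lipoxygenase gene lox1 had a polysomal difference of 0.74 in season 1 and 1.69 in season 2 (adjusted p = 0.024 and, for season 2 alone, 0.047), and lox3 one of 0.28 and 1.80 (season 2 adjusted p = 0.014). Without the array that stood apart in the random block fit lox3 passed (adjusted p = 0.034) and lox1 did not (0.11). hpl1, the hydroperoxide lyase that competes with aos1 for its substrate, differed by 1.26 ± 0.21 (adjusted p = 0.0050) with all arrays and did not pass in season 2 alone (0.80, adjusted p = 0.12). The oxophytodienoate reductase genes opr1 and opr5 were lower, at -0.89 and -0.87, with all arrays only. Of 13 probe sets of jasmonate, ethylene and wound genes, 4 were higher and 3 lower with all arrays, and 4 were higher and 0 lower in season 2. The season 2 calls included another probe set of lox1, with polysomal differences of 0.27 in season 1 and 1.54 in season 2. It was not called with all arrays. The 2 probe sets of the allene oxide cyclase gene aoc1 that passed with all arrays had opposite signs, 0.88 and -0.57. The median of the 13 was 0.39 with all arrays and 0.65 with the season 2 pair. With all arrays 7.71% of all probe sets tested were higher and 4.16% lower, and these shares were smaller with the season 2 pair alone.

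dwarf3 encodes the cytochrome P450 that oxidises ent-kaurenoic acid in gibberellin synthesis. Polysomal signals were 8.63 and 8.68 on the upper and 10.37 and 9.97 on the lower side. The difference was 1.51 ± 0.17 (adjusted p = 0.0005) with all arrays, which include the array that stood apart, and 1.29 in season 2. In total RNA the differences were 0.12 and 0.91, and neither passed. It was the single call among 4 probe sets of gibberellin and brassinosteroid genes in both settings. None of 4 auxin probe sets passed, where aic1 had the largest polysomal difference, 1.17. For comparison, 7.71% of all probe sets tested were higher with all arrays, and a smaller share with the season 2 pair alone. The test gave 0 calls in this list with all arrays and 0 with the season 2 pair. Of 8 abscisic acid and drought probe sets, dhn1, a dehydrin, and aba1 were higher with all arrays (1.98 and 0.54) and none passed in season 2.

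glu1 encodes the beta-glucosidase that frees benzoxazinoid toxins from their glucosides. Upper side polysomal signals were 10.0004 and 9.95, lower side ones 12.18 and 11.49, and its total RNA signal 11.86 and 10.02 against 12.07 and 11.03. The polysomal difference was 1.86 ± 0.18 (adjusted p = 0.0003), or 1.54 ± 0.22 (adjusted p = 0.0084) in season 2, and it missed the threshold without the array that stood apart in the random block fit (1.42, adjusted p = 0.052). In total RNA the difference was 1.01 in season 2 and 0.21 in season 1. With both seasons it was 0.61 ± 0.15 and did not pass (adjusted p = 0.30). Vertical plants had 11.43 to 12.01 in season 1 and 9.32 to 9.75 in season 2, so for glu1 the season 2 upper side was not below the vertical level. Of all probe sets tested, 7.71% were higher in polysomal RNA with all arrays, and a smaller share with the season 2 pair alone. Of 16 defence probe sets, 5 were higher with all arrays (glu1, prp2, mir2 and 2 of bx6) and glu1 alone in season 2.

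Among other genes called with the season 2 pair, the vacuolar invertase gene ivr2, which splits sucrose, was higher on the lower side by 1.24 (adjusted p = 0.032). The translation elongation factor gene EF1-A was higher by 0.97 in polysomal RNA and by 1.26 in total RNA, where season 1 gave -0.12. HRGP, a hydroxyproline-rich wall glycoprotein, was higher by 0.98 (adjusted p = 0.010) and gar2 by 0.76 (adjusted p = 0.022). Without the array that stood apart in the random block fit, ivr2, HRGP and gar2 did not pass (adjusted p = 0.36, 0.061 and 0.27), whereas EF1-A did (0.0081). KIN9, LOC732740 and LOC542510 were lower, at -0.72, -0.72 and -0.71, where LOC732740 had 0.59 in season 1. The next counts stand beside a share of 7.71% higher over all probe sets with all arrays, and a smaller share, given above, with the season 2 pair alone. Of 16 probe sets of sugar metabolism and transport, 5 were higher with all arrays and ivr2 alone in season 2. The 45 probe sets of ribosomal proteins and translation held 2 higher and 0 lower in both settings, EF1-A and gar2.

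piip1 was matched to the phospholipid and inositol list by its symbol alone, and its role is not given here. Its brightest probe set had upper side polysomal signals of 9.75 and 9.84, with 11.22 and 10.85 on the lower side. Total RNA gave 10.78 and 9.81 against 11.85 and 11.00. It was the gene with the smallest p in total RNA, with a difference of 1.07 in season 1 and 1.19 in season 2 that did not pass (1.13 ± 0.19, adjusted p = 0.16). In polysomal RNA it was 1.24 ± 0.16 (adjusted p = 0.0014) with all arrays and 1.01 ± 0.21 (adjusted p = 0.044) in season 2. The 6 probe sets of piip1 disagreed: 3 were called higher in polysomal RNA in both settings, while the others had all-array differences of -0.12, -0.38 and 0.13. With all arrays these 3, all of the same gene, were the only calls among the 13 probe sets of that list. The share over all probe sets tested was 7.71% higher with all arrays. Without the array that stood apart in the random block fit none of the 3 passed (adjusted p = 0.18 for the brightest, 0.059 and 0.14 for the others).

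**Figure D4:**
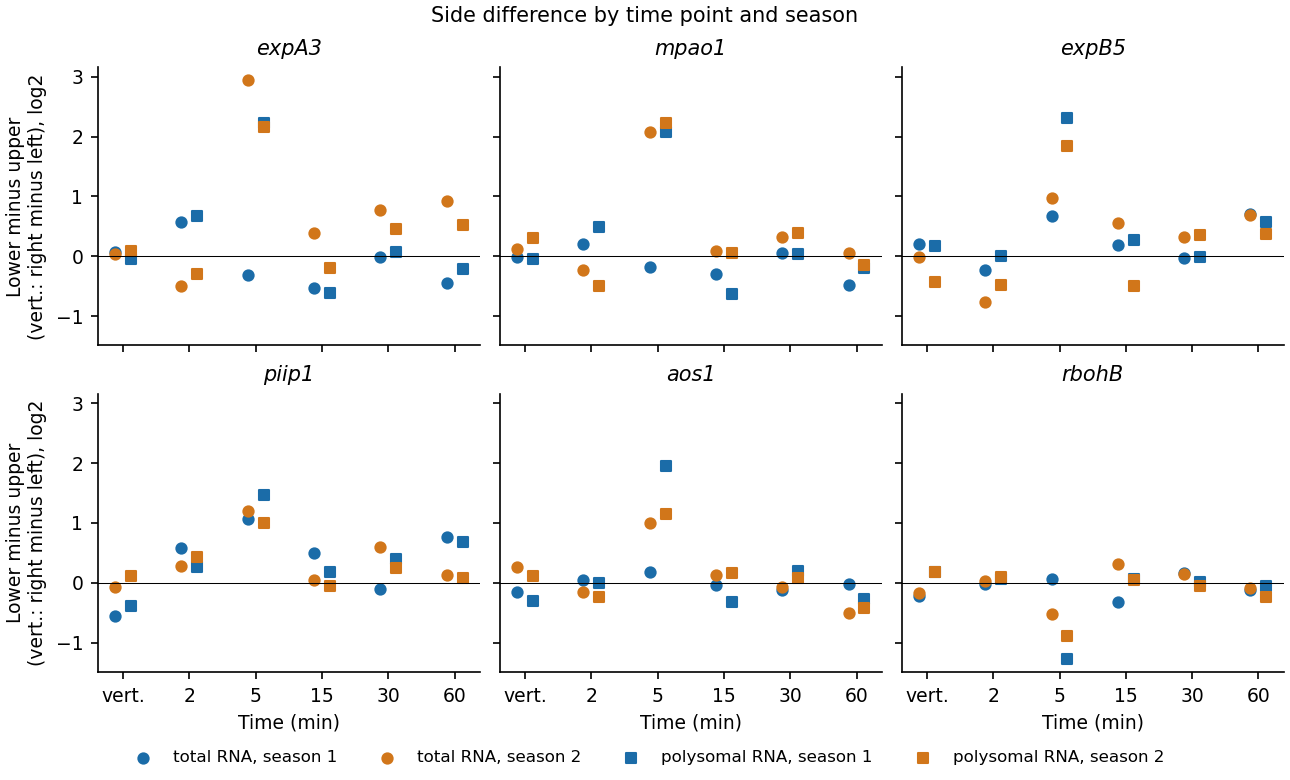
Lower minus upper difference (log2, y axis; right minus left in vertical plants) of 6 genes by time after reorientation (x axis, min), with circles for total RNA, squares for polysomal RNA and seasons in colour. For expA3 and mpao1 the points at 5 min, other than total RNA of season 1, lie above those at all other times, and for rbohB the polysomal points at 5 min lie below them.

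A second set of genes was called with all arrays and had small differences in season 2. hsp22, a small heat shock protein gene, had upper side polysomal signals of 12.58 and 12.62 and lower side ones of 8.95 and 12.26. In total RNA season 1 had 8.40 and 8.70, and season 2 had 12.65 and 12.34. Apart from the array that stood apart, all season 1 arrays at 5 min and of vertical plants were below 9 and all those of season 2 above 12. Its difference was -1.99 ± 0.52 (adjusted p = 0.033) with all arrays and -0.35 ± 0.22 (adjusted p = 0.48) in season 2. gst2, a glutathione S-transferase gene, had differences of -3.41 in season 1 and -0.67 in season 2, with an adjusted p of 0.016 with all arrays and 0.14 in season 2. For gst31 the differences were -2.99 and -0.64, for gst5 -1.62 and -0.38, and for gst6 -1.88 and -0.13. Over all probe sets tested, 4.16% were lower with all arrays. Of 19 glutathione S-transferase probe sets, 7 were lower with all arrays at a median of -0.63, and 0 passed in season 2 at a median of -0.18. In total RNA their median was -0.03.

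Wall, lignin, cytoskeleton and chaperone genes were counted in the same way. With all arrays 7.71% of all 10527 probe sets were higher and 4.16% lower, so list counts near these shares say nothing particular about a list. Of 16 cellulose and wall synthesis probe sets, 4 were lower (bk2, cesa10, cesa11 and CesA12) and 1 higher (cesa3) with all arrays, and 0 passed in season 2. bk2 encodes a COBRA-like protein of secondary walls, and it differed by -1.95 in season 1 and by -0.48 in season 2. Of 7 lignin probe sets, 4CL and BM1 were lower with all arrays, by -0.81 and -0.56, and 0 passed in season 2. Among 28 cytoskeleton probe sets, 4 were higher (tub4 and 3 of tub6) and 4 lower (2 of tub5, tubg1 and kinesin-1) with all arrays, and 1 (KIN9, not called with all arrays) was lower in season 2. The single call of 14 cell cycle probe sets was kinesin-1, also in the cytoskeleton list, at -1.50 ± 0.25 (adjusted p = 0.0052), or -0.93 (adjusted p = 0.12) in season 2. Of 28 heat shock and chaperone probe sets, 1 was higher (pdi) and 2 lower (hsp22 and pdi7) with all arrays, and 0 passed in season 2.

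Further genes that were higher with all arrays did not pass in season 2 alone. pdc1, a pyruvate decarboxylase gene, differed by 2.57 ± 0.38 with all arrays and by 1.79 (adjusted p = 0.080) in season 2. Corresponding values were 2.49 and 1.67 for LOC732784, 2.48 and 0.72 for nar, 1.73 and 0.98 for the pathogenesis-related gene prp2, 1.36 and 0.99 for the starch branching enzyme gene sbe1, and 1.31 and 0.52 for NIR, which encodes nitrite reductase. Of 35 aquaporin and ion transport probe sets, 5 were higher (nar, NNR1, nip1a, pip2b and pip2c) and 1 lower (tip2), and none passed in season 2 polysomal RNA. These list counts stand beside 7.71% higher and 4.16% lower over all 10527 probe sets with all arrays. The silicon channel gene Lsi6 was lower in season 2 total RNA (-0.87) but not in that of season 1 (0.13). Among probe sets without a gene name the 3 highest differences with all arrays were 3.29, 3.04 and 3.02, and the 3 most negative -3.29, -2.22 and -2.16. The probe set at 3.29 had 3.92 in season 1 and 2.66 in season 2 and passed in season 2 alone (adjusted p = 0.017). The probe set at -3.29 had -6.28 and -0.30.

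Markers of other tissues were counted in the same way, beside shares of 7.71% higher and 4.16% lower over all probe sets with all arrays. With all arrays 6 of 28 green tissue probe sets were higher and 1 (fdx3) lower, at a median of 0.09, and 0 passed in season 2. Among 7 meristem and stem probe sets kn1 was higher (0.64), and among 4 seed and pollen probe sets mez2 was higher (0.57). Neither of these lists had a call in season 2. Their part in the other differences was not tested. Of 6 early stress transcription factors, ERF1 was higher (0.44) with all arrays only, and dbf1, which was named because of earlier results, had differences of -0.16 and 0.26. None of 40 histone and chromatin probe sets passed in either setting. The gene SAG, named for the same reason as dbf1, had -0.44 and 0.66.

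**Figure D5:**
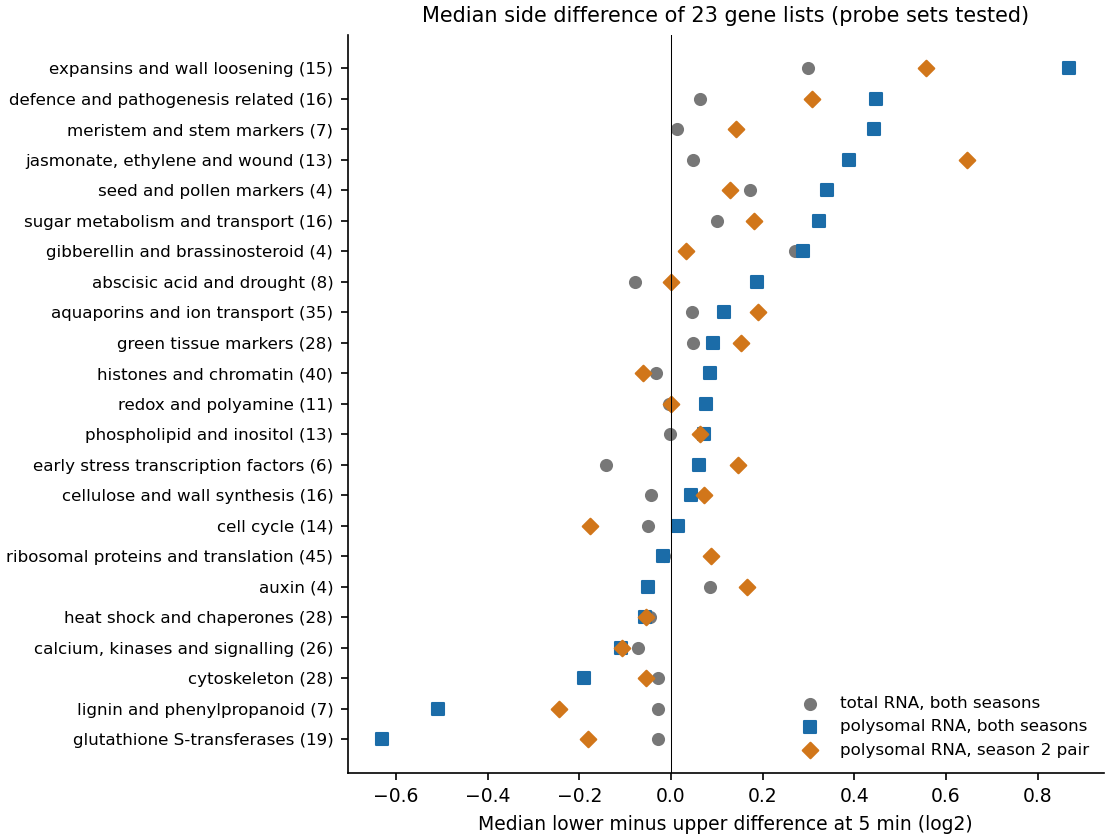
Median lower minus upper difference at 5 min (log2, x axis) of 23 gene lists (y axis, with the number of probe sets tested) in total RNA of both seasons (grey), polysomal RNA of both seasons (blue) and the season 2 polysomal pair alone (orange). With both seasons the expansin list has the highest polysomal median, 0.87, and the glutathione S-transferase list the lowest, -0.63. The order changes in the season 2 pair. There the jasmonate, ethylene and wound list is highest (0.65, expansins 0.56), and the lignin list is lowest (-0.25, glutathione S-transferases -0.18).

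In total RNA no probe set passed the test with both seasons (0 of 10527, 0%). There were 824 at an unadjusted p under 0.05, and the smallest adjusted p was 0.16. After piip1 and expB5, the genes of smallest p were ark (0.49), the beta-tubulin gene tub6 (0.36), the legumain protease gene see2b (-0.43) and the fructokinase gene frk2 (-0.31). They were followed by lox1 (1.07), glu1 (0.61), the plastid ribosomal protein gene prpl35-1 (0.36) and gst2 (-0.47). For these genes the seasons had the same sign, for example -0.45 and -0.40 for see2b. With the season 2 pair alone 67 probe sets (0.636%) passed, 61 higher and 6 lower, and with the season 1 pair alone 0 passed. Of the 67, 48 were also called in season 2 polysomal RNA, which is 71.6% of the 67 and 29.8% of the 161. These came from other aliquots of the same powders, so they share the plants. The listed genes called in season 2 in both kinds of RNA were expA3, expB8, mpao1, aos1, glu1 and EF1-A. The difference between the seasons in total RNA passed for 11 probe sets (0.104%), all higher in season 2, and EF1-A and mpao1 were the listed genes among them. In polysomal RNA, where season 1 includes the array that stood apart, 760 (7.22%) passed.

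The 148 probe sets higher on the lower side in season 2 polysomal RNA were followed in total RNA, which had not chosen them but, in season 2, came from the same plants. In season 1 total RNA, 107 of the 148 had a positive side difference, at a median of 0.10, against 4982 of all 10527 at a median of -0.01. In season 2 total RNA, 145 of the 148 were positive at a median of 0.74. Relative to vertical plants of the same season, their median level in season 2 total RNA was -1.12 in the upper and -0.35 in the lower side, against 0.05 and 0.05 over all probe sets tested. In season 1 total RNA the medians were -0.17 and -0.05, against -0.02 and -0.02 over all. In the season 2 polysomal pair that chose these probe sets, the medians were -1.30 and -0.16, which is a description of the choice. The 2 sides were compared within a pool, whereas vertical plants were other plants.

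In vertical plants the right minus left difference passed for 0 of 10527 probe sets in total RNA (566 at an unadjusted p under 0.05) and for 0 in polysomal RNA (308 unadjusted). The listed genes of smallest p were frk2 (0.31), PIP1-3 (-0.38), see2a (0.32) and sbip1b (0.60) in total RNA, and myo1 (0.36) and m15 (-0.52) in polysomal RNA. expA3 differed there by 0.08 and 0.03 in the seasons in total RNA, and by -0.04 and 0.09 in polysomal RNA. The 5 min side difference was then set against the vertical one. In polysomal RNA 284 probe sets (2.7%) passed, 233 higher (2.21%) and 51 lower (0.484%), including expA3, expB4, expB5, mpao1, aos1, glu1, dwarf3 and rbohB. With the season 2 pair alone the count was 122 (1.16%), and without the array that stood apart it was 85 (0.807%) in the random block fit and 0 with the season as the only block. In total RNA 0 passed with both seasons (763 unadjusted) and 21 (0.199%) with season 2 alone.

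Side differences at 5 min were also compared with the mean of those at 2, 15, 30 and 60 min. In polysomal RNA 614 probe sets (5.83%) passed, 434 higher (4.12%) and 180 lower (1.71%). The count was 118 (1.12%) with the season 2 pair, 2670 (25.4%) with the season 1 pair and 91 (0.864%) without the array that stood apart in the random block fit. Against 60 min alone, tested with all arrays only, 175 (1.66%) passed in polysomal RNA and 0 in total RNA (885 unadjusted). In total RNA 0 passed (738 unadjusted), and 48 (0.456%) with season 2 alone. The tests of the other times gave few calls: in polysomal RNA 0 at 2, 15 and 30 min and 7 at 60 min (0.0665%), and in total RNA 0 at 2 and 30 min, 12 at 15 min (0.114%) and 51 at 60 min (0.484%). Of the 148 probe sets higher in season 2 polysomal RNA, 109 had a total RNA difference above all 10 other total RNA pairs in season 2, and 21 in season 1. For all 10527 probe sets the corresponding counts in total RNA were 1154 and 928.

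Whether the side difference was the same in both kinds of RNA was tested on the polysomal to total ratio of each powder. With all arrays 0 probe sets passed (1824 at an unadjusted p under 0.05, smallest adjusted p 0.053), and with the season 2 pair alone 0 passed (784 unadjusted), while the season 1 pair alone gave 2245 (21.3%). The listed genes of smallest p, all at an adjusted p of 0.10, were trh2 with a ratio difference of -0.64, thi1 with 1.31, expB5 with 1.25, LOC542631 with -0.76 and expB8 with 0.69. Across probe sets, the side difference of season 2 correlated between total and polysomal RNA with r = 0.499, and that of season 1 with r = 0.100. These are descriptions over probe sets that share arrays and powders. The season 1 polysomal difference correlated more with the season 1 minus season 2 level of the lower side in total RNA (r = 0.717) than with the total RNA side difference of its own powders, and its r with the season 2 total RNA side difference was 0.443. The season 2 polysomal side difference had r = 0.391 with the same lower side quantity.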

How the data were processed

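The authors computed 1 linear signal intensity per probe set and array, for 48 arrays, with GCOS according to the submitters' processing notes. The version and the scaling target are not given in the sources used here. Trimmed by 2%, array means were 495.8 to 499.1, so the deposited intensity was used without further scaling. No genome build applies, and the number of arrays limits the precision. Probe set names came from the platform annotation: 1452 probe sets had 1 gene symbol and 1 had several, and 1377 were updated through RefSeq (Zm-B73-REFERENCE-NAM-5.0).

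Values were taken as log2(signal + 16) and probe sets below the 40th percentile of the mean level were left out. Each kind of RNA was fitted with limma 3.58.1 in R 4.3.3 (lmFit, eBayes with trend) on its 24 arrays, with the 12 plant pools as a fixed block, which leaves 6 residual degrees of freedom. The pairing comes from the protocol, which harvests both sides from the same plants. The deviations of the sides from their group means correlated within a time with r = 0.744 to 0.896, except 0.0101 for polysomal RNA at 5 min. Adjusted p-values are Benjamini-Hochberg over 10527 probe sets. Fits that leave out 1 pair at 5 min have 5 residual degrees of freedom, and the pair kept at 5 min adds nothing to their spread. The random block used duplicateCorrelation (statmod 1.5.0). The model code was tested on simulated data. Other pseudocounts (1 and 64), no filter, quantile normalization, other blocks and no trend were tried.

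Genes to name were picked, for each result, as up to 15 listed genes with the highest and 15 with the lowest called difference of the same sign in both seasons. Where fewer than 10 passed, those of smallest p were added, along with the 3 highest and 3 lowest unnamed probe sets, and 9 genes (expA3, mpao1, gst2, gst31, piip1, aos1, dbf1, SAG and CDPK1) whatever their test. The text does not print every gene so picked, and gives unnamed probe sets by value. Genes called with the season 2 pair, the season comparison and other members of lists were named after their values were seen. The comparison, the genes and the 23 gene lists, matched on symbols, were chosen with earlier results of these data known, and lists are described by counts and medians only. No sequence is shown, since no sequence table was used here.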

Additional observations from a re-analysis of the deposited data

Results flagged for a closer look

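The side difference at 5 min differed from the right minus left difference of vertical plants in polysomal RNA by the test of that difference for 284 probe sets. Each value here is the 5 min side difference minus the vertical one, in log2 units, with all arrays. For expansin genes it was 2.48 for expB4, 2.195 for expB5, 2.17 for expA3 and 1.45 for expA4. For other listed genes that were higher it was 2.87 for pdc1, 2.60 for LOC732784, 2.03 for mpao1, 1.83 for glu1, 1.65 for aos1, 1.57 for nip1a, 1.53 for dwarf3, 1.37 for piip1, 1.32 for hpl1, 1.30 for MYB-IF35 and 1.29 for ivr2. Listed genes that were lower had -1.53 for kinesin-1, -1.26 for rbohB, -1.10 for LOC541946, -0.65 for LOC542607 and -0.53 for PK. Among probe sets without a listed gene it was 3.25, 3.22, 3.19, -2.88, -2.03, -1.97 and 2.79.

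The side difference at 5 min differed from the mean of those at 2, 15, 30 and 60 min in polysomal RNA for 614 probe sets. For genes that had not also passed against vertical plants, the 5 min difference minus that mean was 2.77 for nar, 1.94 for dhn1, 1.94 for prp2, 1.34 for NNR1 and 1.31 for sbe1 among the higher ones. Among the lower ones it was -1.96 for gst2, -1.86 for gst31, -1.17 for bk2, -1.01 for gst5, -0.91 for cesa11, -0.90 for LOC542631, -0.84 for LOC100101510, -0.82 for opr5, -0.69 for LOC541999, -0.66 for pglcat8, -0.64 for copz2 and -0.63 for LOC542510. For unnamed probe sets it was -2.14 and -2.06. These values include the array that stood apart. In season 2 polysomal RNA the side difference of dhn1 was 1.44 at 5 min and 1.56 at 60 min, so there it was not particular to 5 min. With the season 2 pair alone 122 and 118 probe sets passed these tests.

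The side difference at 5 min differed between the seasons, by a test chosen after the values were seen, for 11 probe sets in total RNA and for 760 in polysomal RNA (351 higher and 409 lower in season 2), where season 1 includes the array that stood apart. In total RNA mpao1 was among the 11, with a season 2 minus season 1 difference of 2.26. No explanation was tested for any of these values.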

How the results depend on the processing

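Of 99 counts recomputed under the alternatives, 73 stayed within 1.5 times the reported count and 26 did not. Leaving out the season 1 or the season 2 pair at 5 min gave 0 to 67 calls in total RNA and 161 to 3103 in polysomal RNA, where the higher count comes from the pair with the array that stood apart. The ranges were 0 to 21 (total) and 122 to 1955 (polysomal) for the difference from vertical plants, 0 to 48 and 118 to 2670 for that from the other times, 0 to 2245 for the polysomal to total ratio, and 0 to 2 for vertical plants in total RNA. For vertical plants the pair left out was the vertical pair of a season and not the pair at 5 min. The pairing mattered most among the modelling choices. Without the replicate block, the polysomal counts were 5, 0 (against vertical) and 3 (against the other times). With the season as the fixed block they were 299, 11 and 89. With the pool as a random block, 2 probe sets passed in vertical plants and 1 against vertical, both in total RNA. Without the array that stood apart the polysomal counts were 6, 0 and 0 with the season as fixed block, and 151, 85 and 91 with the random block, an alternative added after the data were seen. At log2(signal + 1) the ratio gave 4 calls. The cause of these changes was not tested.

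Of 1923 values of named genes and probe sets under the alternatives, 1418 kept direction and call, 478 lost the call, 19 gained it and 8 changed sign. CDPK1 in polysomal RNA changed to -0.051 after quantile normalization, to -0.32 without season 1 (0.36 without season 2), and to -0.34 and -0.33 without the array that stood apart. Leaving out each season gave -0.31 to 2.95 for expA3 and -0.18 to 2.08 for mpao1 in total RNA, and -0.16 to 0.26 for dbf1 and -0.44 to 0.66 for SAG in polysomal RNA, the negative values being those without season 2. With 2 pools a side, a difference that misses the threshold is not shown to be absent.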

Other observations

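Genes of nitrate assimilation were not a list of their own. The polysomal side differences at 5 min were 4.23 and 0.72 in seasons 1 and 2 for nar, 1.86 and 0.49 for NNR1 and 2.11 and 0.52 for NIR, and the total RNA differences were -0.30 and 0.43 for nar and 0.21 and 0.17 for NIR. The log2 signal of nar in total RNA at 5 min was 8.98 and 8.69 in season 1 and 5.36 and 5.79 in season 2, and in polysomal RNA it was 5.49 in the upper and 9.72 in the lower side of season 1. These genes were chosen after their values were seen.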
